A study of Mus musculus with 45 samples.

Results

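The subunits of the oxidative phosphorylation system were followed through the conversion of mouse neural progenitor cells (NPC) into induced pluripotent stem cells, measured by Oxford Nanopore long-read cDNA sequencing. Members were chosen by gene symbol: every gene of the deposited gene table named as a subunit of complexes I to V or as cytochrome c (Nduf, Sdh, Uqcr, Cox4 to Cox8, Atp5, Cyc1 and Cycs names) and the mitochondrially encoded mt-Nd, mt-Co, mt-Cytb and mt-Atp genes. The rule took 98 of 23575 genes, of which 90 are nuclear and 8 are mitochondrial. Among the nuclear members, 38 belong to complex I, 4 to complex II, 9 to complex III, 21 to complex IV and 17 to complex V, and 1 is cytochrome c. A further 6 pseudogene names and 4 joined names that pool several genes also matched and were kept apart. The mitochondrial members were mt-Co1, mt-Cytb and mt-Nd1 to mt-Nd6, and the other mitochondrial protein genes were not analysed here. All 98 members were above 0 somewhere, and 88 were above 0 in all 45 libraries.

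Oxidative phosphorylation couples the transfer of electrons from NADH and succinate to oxygen with the making of ATP. Complex I (NADH dehydrogenase) and complex II (succinate dehydrogenase) feed electrons to complex III, cytochrome c carries them on to complex IV (cytochrome c oxidase), and the proton gradient drives complex V (ATP synthase). Complex IV and a few other sites have alternative subunit genes with tissue-restricted use, for example in heart and skeletal muscle (Cox6a2, Cox7a1), in testis (Cox6b2, Cox7b2) or under low oxygen (Cox4i2, Ndufa4l2). Pluripotent cells are known for their reliance on glycolysis, and neural progenitors differ from them in mitochondrial shape and respiration.

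The cells carried an Oct4-GFP reporter (the O4G line, made from R1 embryonic stem cells) and the progenitors were derived from such stem cells. Wild-type (WT) progenitors and progenitor lines stably carrying doxycycline-inducible OKMS (Oct4, Klf4, Myc and Sox2) or OKS (the same without Myc) were sequenced; both factor lines also carried Luciferase-AS, at day 0 as well. Day 0 cells were in NPC medium. Reprogramming cells were in FBS-LIF with doxycycline (called serum below) and were taken on days 2, 4, 6, 10, 14 and 20, or on day 18, and others were moved to 2i-LIF (on day 6 for the day 14 and day 20 samples; the switch day of the day 18 samples is not given in the sources used here). The control without factors was WT cells kept in the same serum and doxycycline until day 2. WT embryonic stem cells (ESC; O4G, R1 and R1-Clone3) grew in 2i-LIF, so stem cells and progenitors differed in medium as well as in cell type.

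Of the libraries, 22 used a direct cDNA kit on poly(A)-enriched RNA and R9 flow cells, and 23 used a PCR cDNA kit on total RNA without that enrichment and R10 flow cells. These are called R9 and R10 below, and each was tested apart, since kit, enrichment, PCR and flow cell changed together. Reads per library, recovered as whole numbers from the library-scaled gene counts (CPM), ran from 447990 to 1390424 in R9 and from 566599 to 4236442 in R10. Summed CPM of 6 pluripotency markers was 10.8 to 30.4 in progenitors and 11001 to 13613 in stem cells, and that of 6 neural progenitor markers 4438 to 7031 against 4.41 to 42.9, so these 2 groups bore out their labels. In R10, 1 of the 7 stem cell libraries (R1 replicate 3) lacks the library name that the other 6 carry in the labels; it stood apart in mitochondrial transcripts, and results that rest on it are given with and without it. Nothing in the labels says that replicates were separate cultures, so p-values measure the spread between these samples, which may be technical. Differences between groups were tested two-sided with limma on log2(CPM + 1) unless another test is named, and a call means an adjusted p (Benjamini-Hochberg, over every gene tested) below 0.05.

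Summed over all nuclear members, subunit transcripts took between 3.29 and 5.81% of CPM in every library. In R10 the progenitors had 4.77 to 5.60% of all CPM in the 90 nuclear members, the 6 named stem cell libraries 4.14 to 4.40% and the remaining one 5.22%. In R9 the ranges overlapped, at 4.82 to 5.66% in progenitors and 5.15 to 5.25% in stem cells. Over all libraries the share ran from 3.49 to 5.66% in R9 (median 4.87%) and from 3.29 to 5.81% in R10 (median 4.45%). As these are bulk samples, fewer cells of a type and less RNA per cell cannot be told apart.

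**Figure D1:**
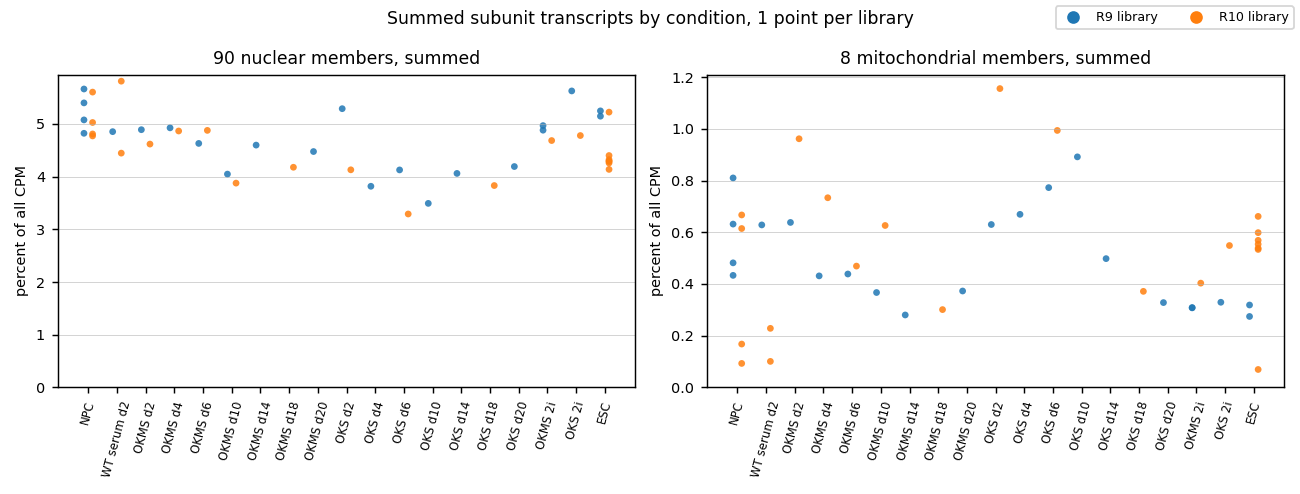
Percent of all CPM taken by the 90 nuclear members (left) and the 8 mitochondrial members (right), by condition on the horizontal axis, 1 point per library, coloured by R9 or R10. Nuclear shares stay between 3.29 and 5.81% throughout, while mitochondrial shares of the stem cells range from 0.0693% in 1 R10 library to 0.661%.

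Between the end states, single subunits moved in both directions. In R10 (7 stem cell and 4 progenitor libraries), 52 of the 86 nuclear members tested were called, 20 higher and 32 lower in stem cells, where 69.2% of all genes tested were called (34.7% higher, 34.6% lower). The members' median difference was -0.12 on the log2 scale, beside 0.0059 over all genes. With each library centred on its median the split became 30 higher and 15 lower, beside 41.7% and 28.4% of all genes. By edgeR's quasi-likelihood test on the recovered reads it was 21 and 27, beside 35.9% and 32.2% of all genes. The balance of directions thus depended on the scaling, for all genes as well as for the members. Of the stem cell libraries 6 carry a library name in the labels and none of the 4 progenitors does, so cell state and library set cannot be told apart there; with R1 replicate 3 as the only stem cell library 14 were called (8 higher, 6 lower), the spread then coming from the progenitors. Only 12 members also differed at least 2-fold (6 each way), against 45.8% of all genes. In R9 (2 stem cell and 4 progenitor libraries), 36 of 87 nuclear members were called, 19 higher and 17 lower, with a background of 43.5% (21.5% higher, 21.9% lower) and a median of -0.06 beside -0.07 for all genes. There the centred split was 22 and 8, beside 25.3% and 19.8% of all genes, and edgeR gave 20 and 10, beside 23.9% and 20.3%. Calls fell to 17 without the O4G and 14 without the R1 stem cell library, where the lone remaining library is assumed to vary like the progenitors, so counts that use R9 rest on both.

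By complex, directions are given beside the shares of all genes above (34.7% higher and 34.6% lower in R10, 21.5% and 21.9% in R9). In complex I, 17 of 38 members fell and 5 rose in R10 (44.7% and 13.2%, median -0.22), and in R9 8 of 37 fell and 4 rose (21.6% and 10.8%). With each library centred on its median, the median of all genes in R10 moved from 0.0059 to 0.24. The shares of all genes were then 41.7% higher and 28.4% lower in R10, and 25.3% and 19.8% in R9. Centred, complex I had 10 higher and 9 lower in R10 and 5 each way in R9, so its excess of lower over higher members was not kept. By edgeR it had 5 higher and 14 lower in R10 (36.8% lower, beside 32.2% of all genes). In R9 edgeR gave 4 higher and 6 lower (16.2% lower, beside 20.3% of all genes). Lower members outnumbered higher ones in both edgeR fits, but their share was above that of all genes only in R10. Complex II fell in 2 of 4 members in R10 (median -0.30) and in 1 of 4 in R9, and with centring none fell and 1 rose in R9. In complex III, 3 of 9 rose and 4 fell in R10 (5 and 2 centred), and 4 rose and 2 fell in R9 (4 and 1 centred). Complex IV had 6 of 17 higher and 4 lower in R10 (8 and 2 centred), and 9 of 19 higher and 2 lower in R9 (9 and 0 centred). Its higher members include Cox4i2 and Cox7b2 in both and Ndufa4l2 in R9. These passed the filter only through the stem cells, so a call on them could only be higher. Complex V was even in R10, with 5 of 17 higher and 5 lower (6 and 2 centred), and had 2 higher and 4 lower in R9 (3 and 2 centred).

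**Figure D2:**
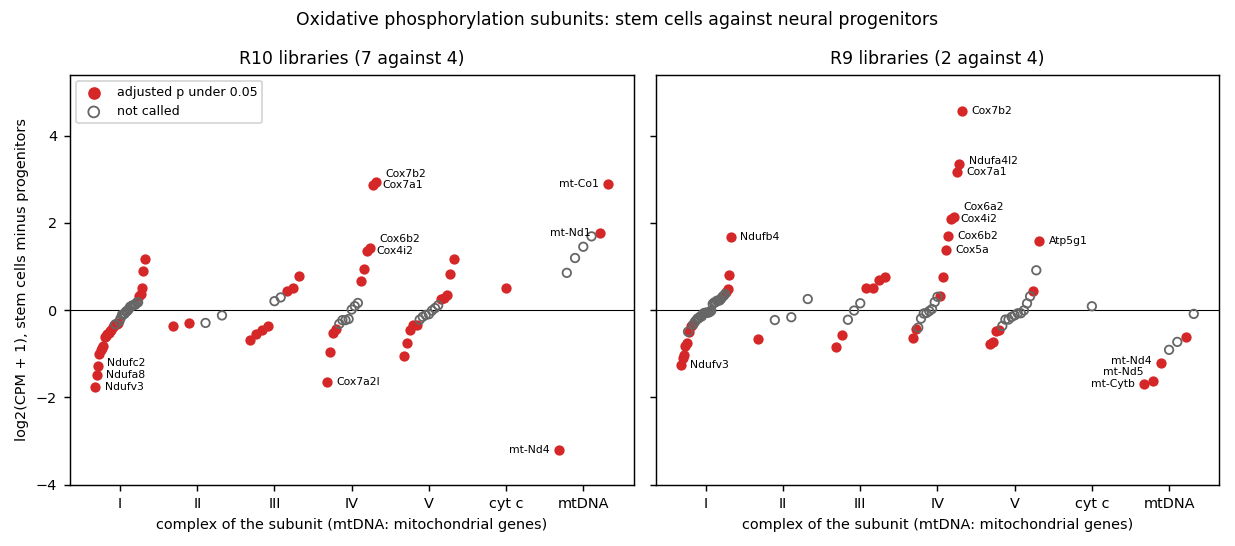
Difference of each tested member between stem cells and progenitors on the log2(CPM + 1) scale (vertical axis), grouped by complex (horizontal axis; mtDNA marks the mitochondrial genes), for R10 and R9 libraries; filled points have an adjusted p under 0.05. Most nuclear members lie near 0, and complex IV holds the highest nuclear point of the R10 panel, Cox7b2 at 2.93.

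Of the 85 nuclear members tested in both library types, 27 were called in both, all with the same sign, which is 51.9% of the R10 calls and 79.4% of the R9 calls among them. Over all genes 41.2% were called in both, 98.9% of these with the same sign, which is 59.4% of the R10 and 89.5% of the R9 calls, so the members' share was no higher. The 11 higher in stem cells were Atp5b, Atp5g1, Cox4i2, Cox5a, Cox6b2, Cox7a1, Cox7b2, Ndufa11, Ndufb4, Uqcrb and Uqcrc1. For Cox4i2 and Cox7b2, which passed the filter only through the stem cells, the same sign in both was given in advance. The 16 lower were Atp5d, Atp5e, Atp5l, Atp5md, Cox6c, Cox7a2l, Ndufa1, Ndufa12, Ndufa2, Ndufa8, Ndufb11, Ndufc2, Ndufs8, Ndufv3, Uqcrfs1 and Uqcrh. The size of the difference between stem cells and progenitors itself differed between R10 and R9 for 2 of 85 nuclear members (Cox7b2 and Sdhb) by an interaction term, where 3.33% of all genes did. This test was added after values had been seen. For Cox7b2, at 0 in every progenitor library, it compares only the stem cell levels.

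In complex I the largest fall was that of Ndufv3, an accessory subunit of the NADH-oxidising module, and the reference core subunit Ndufs1 moved little. Ndufv3 was at 951, 919, 890 and 1125 CPM in the R10 progenitors and at 225 to 378 CPM (median 287) in the stem cells, so the groups did not overlap. The difference was -1.76 (SE 0.13, adjusted p = 1.26e-08), and -1.27 in R9 (adjusted p = 0.000631). The accessory subunits Ndufa8 and Ndufc2 fell by 1.49 and 1.29 on the log2 scale in R10 (adjusted p = 3.93e-06 and 3.04e-06), and by 0.82 and 1.09 in R9 (0.00165 and 0.00154). For Ndufs1, which carries iron-sulfur clusters of the electron path, the difference was 0.38 in R10 (adjusted p = 0.0285) and turned to -0.20 with R1 replicate 3 as the only stem cell library, where it stood at 69.1 CPM against 104 to 123 CPM in the others.

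In complexes II and III, members moved both ways. Sdha, the flavoprotein of succinate dehydrogenase, fell by 0.30 in R10 (adjusted p = 0.0392). Sdhb, its iron-sulfur subunit, was at 340 to 431 CPM in the R10 progenitors and 245 to 329 CPM in the stem cells (-0.37, adjusted p = 0.00630), whereas in R9 it was at 418 to 452 and at 516 and 525 CPM (0.25, adjusted p = 0.0605), and the interaction was -0.63 (adjusted p = 0.0483). Uqcrc1, a core protein of complex III, rose in both (0.50, adjusted p = 0.000523 in R10; 0.69, adjusted p = 0.00195 in R9), as did Uqcrb, a small subunit (0.79, adjusted p = 0.00485; 0.50, adjusted p = 0.0370), and Uqcrh, the hinge protein, fell in both (-0.69 and -0.84, adjusted p = 1.39e-05 and 0.00651). Cyc1, the cytochrome c1 of complex III, differed by 0.20 in R10 (adjusted p = 0.197) and by 0.77 in R9 (adjusted p = 0.00372). Cycs, the soluble electron carrier cytochrome c, differed by 0.50 in R10 (adjusted p = 0.0244) and 0.09 in R9 (adjusted p = 0.851). Cycs has near-identical copies in the genome among which the authors' counting could split reads, as do Ndufb4, Ndufs5, Atp5h, Atp5g2, Atp5l and Cox5b. Their levels and calls are uncertain in every comparison.

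In complex IV, the 10 members called in R10 were the alternative forms Cox4i2, Cox6b2, Cox7a1 and Cox7b2 (all higher), the other subunits Cox5a, Cox6c, Cox6c2, Cox7c and Cox8a, and the related Cox7a2l. The promoters of 3 alternative genes and their partners are shown to set the alternative gene beside its partner. Each is the 250 bases before the RefSeq start on GRCm38.p6, 5′ to 3′ on the gene's strand, and capitals mark matches to the motifs counted below:
Cox7a1, chr7:30183921-30184170, plus strand: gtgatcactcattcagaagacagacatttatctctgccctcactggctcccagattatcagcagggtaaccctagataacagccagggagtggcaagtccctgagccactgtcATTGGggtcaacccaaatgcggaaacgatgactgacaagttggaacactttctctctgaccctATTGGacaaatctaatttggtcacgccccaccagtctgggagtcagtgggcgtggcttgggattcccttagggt
Cox7a2, chr9:79759854-79760103, minus strand: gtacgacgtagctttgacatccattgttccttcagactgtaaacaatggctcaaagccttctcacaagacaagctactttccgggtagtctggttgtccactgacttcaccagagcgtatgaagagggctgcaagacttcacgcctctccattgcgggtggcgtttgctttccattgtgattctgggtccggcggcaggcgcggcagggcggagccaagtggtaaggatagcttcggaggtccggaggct
Cox7b2, chr5:71548206-71548455, minus strand: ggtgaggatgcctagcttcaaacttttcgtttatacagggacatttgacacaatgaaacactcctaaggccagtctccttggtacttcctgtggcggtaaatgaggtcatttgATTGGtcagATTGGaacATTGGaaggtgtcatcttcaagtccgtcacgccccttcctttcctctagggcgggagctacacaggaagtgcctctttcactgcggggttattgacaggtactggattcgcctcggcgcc
Cox7b, chrX:106015450-106015699, plus strand: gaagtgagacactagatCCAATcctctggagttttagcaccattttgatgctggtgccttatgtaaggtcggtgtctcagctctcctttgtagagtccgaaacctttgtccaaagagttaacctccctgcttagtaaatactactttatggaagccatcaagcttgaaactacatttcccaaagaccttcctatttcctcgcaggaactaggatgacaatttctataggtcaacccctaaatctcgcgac
Cox6b2, chr7:4753095-4753344, minus strand: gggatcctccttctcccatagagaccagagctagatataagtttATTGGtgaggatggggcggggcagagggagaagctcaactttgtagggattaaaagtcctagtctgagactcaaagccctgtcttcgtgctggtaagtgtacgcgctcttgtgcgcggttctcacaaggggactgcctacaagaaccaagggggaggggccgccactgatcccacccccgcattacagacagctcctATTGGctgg
Cox6b1, chr7:30626115-30626364, minus strand: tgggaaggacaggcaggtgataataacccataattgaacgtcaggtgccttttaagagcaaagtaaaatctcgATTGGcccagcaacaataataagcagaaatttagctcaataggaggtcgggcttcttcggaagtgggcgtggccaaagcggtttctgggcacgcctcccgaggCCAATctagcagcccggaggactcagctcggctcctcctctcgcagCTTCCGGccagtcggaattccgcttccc

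The windows were searched on both strands for letters bound by factors known to act on respiratory genes: GCGCATGC (NRF1), CCGGAAG (ETS family, GABPA among them), AAGATGGC (YY1), CCAAT (NF-Y) and ACGTG (HIF). RefSeq promoters matched 69 of the 90 nuclear members. The NRF1 letters stood in 9 of these (13%), against 2.56% of all 27025 genes with a promoter, and the ETS letters in 12 (17.4%) against 7.83%. YY1 letters were in 1 (1.45%) against 1.83%, CCAAT in 31 (44.9%) against 37.5%, and HIF letters in 15 (21.7%) against 18.5%. Median CpG dinucleotides per window were 14 for the members and 6 for all genes. Among the printed windows, those of Cox7a1, Cox7b2 and Cox6b2 hold 4, 9 and 8 CpG and only CCAAT matches, and Cox6b1 holds 14 CpG with an ETS and 2 CCAAT matches. Cox7a2 has 14 CpG and no match, and Cox7b has 5 CpG with a CCAAT match. A match is a description of letters in these windows only.

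Cox7b2, the testis form of subunit 7b, was at 0 in all 8 progenitor libraries and present in all 9 stem cell libraries. In R10 the stem cells had 4.27 to 8.99 CPM (median 6.75), and in R9 they had 19.9 and 26.1 CPM. Against a floor of 3 reads over the progenitor group, levels were at least 23.6-fold higher in R10 and at least 23.9-fold higher in R9 (adjusted p = 2.36e-08 and 7.43e-05). The log2(CPM + 1) difference was smaller in R10 than in R9 by 1.64 (interaction adjusted p = 0.0320). With all progenitors at 0, this compares only the stem cell levels of the library types. Its partner Cox7b differed by 0.01 in R10 (adjusted p = 0.925).

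Cox7a1, the heart and skeletal muscle form of subunit 7a, stood at 6.59, 18.1, 15.2 and 11.2 CPM in the R10 progenitors and at 71.2 to 115 CPM (median 104) in the stem cells. In R9 the progenitors had 18.8, 15.2, 24.1 and 5.81 CPM and the stem cells 119 and 154 CPM. The groups were apart in both, with differences of 2.86 (SE 0.22, adjusted p = 1.81e-08) and 3.16 (adjusted p = 0.00339). The widely expressed form Cox7a2 differed by -0.23 in R10 (adjusted p = 0.114). Cox7a2l, a related protein that joins complexes III and IV into supercomplexes, moved the other way: 123, 115, 97.8 and 112 CPM in progenitors against 28.8 to 56.4 CPM (median 32.2) in stem cells, or -1.64 (adjusted p = 5.01e-07), and -0.65 in R9 (adjusted p = 0.0256). The highest of these stem cell values was that of R1 replicate 3, and with it alone the difference was -0.97 (adjusted p = 0.0142, with the spread taken from the progenitors).

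Cox6b2, the testis form of subunit 6b, was at 28.6, 35.1, 65.4 and 33.6 CPM in R10 progenitors and at 62.4 to 177 CPM (median 109) in stem cells, with 1 progenitor library inside the stem cell range. The difference was 1.43 (adjusted p = 0.000339), and 1.70 in R9 (adjusted p = 0.00910). Its partner Cox6b1 differed by -0.21 in R10 (adjusted p = 0.136). Cox4i2, the form of subunit 4 tied to low oxygen, rose by 1.36 in R10 (adjusted p = 0.00165) and was at least 3.42-fold higher in R9, from 7 reads in 2 libraries against 0 in 4, while Cox4i1 differed by -0.32 in R10 (adjusted p = 0.0734). Cox6a2 and Ndufa4l2 rose in R9 (2.13 and 3.36, adjusted p = 0.0359 and 0.00260) and were too low in R10 to be tested. Cox6a2 was at 0 to 0.584 CPM (median 0.220) in R10 progenitors and 0 to 1.87 CPM (median 0.236) in R10 stem cells. Ndufa4l2 was at 0 to 0.584 CPM (median 0.159) and 0 to 2.83 CPM (median 0.290). The R10 medians thus showed no rise of the R9 size. Cox8b and Cox8c, the muscle and testis forms of subunit 8, never passed 1.69 and 5.94 CPM in any library.

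Marker sums of other cell types also differed between these groups, not all in the same direction. Summed CPM of the striated muscle markers (6 of 8 have a value) was 0 to 0.879 in progenitors and 6.09 to 12.1 in stem cells; Acta1, Ckm, Ttn and Myh6 were at 0 in every progenitor library, and Acta1, Actc1 and Ckm at 0 in the R9 stem cells. The germ cell markers (5 of 6 have a value) summed to 0.287 to 11.8 CPM in progenitors, with Ddx4, Tex101 and Ldhc at 0 in all of them, and to 95.6 to 181 CPM in stem cells. Neuron markers (3 of 4 have a value) were at 0 to 8.71 CPM in progenitors and 37.4 to 133 CPM in stem cells. Snap25 was at 0 in all stem cells and Syt1 in those of R9, where the sum (76.7 to 116 CPM) came from the remaining marker. Neither was at 0 throughout the progenitors. Mesenchymal markers were at 20.3 to 199 CPM in progenitors and 4.24 to 14.8 CPM in stem cells, with Postn at 0 in stem cells. Their part in the differences was not tested.

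**Figure D3:**
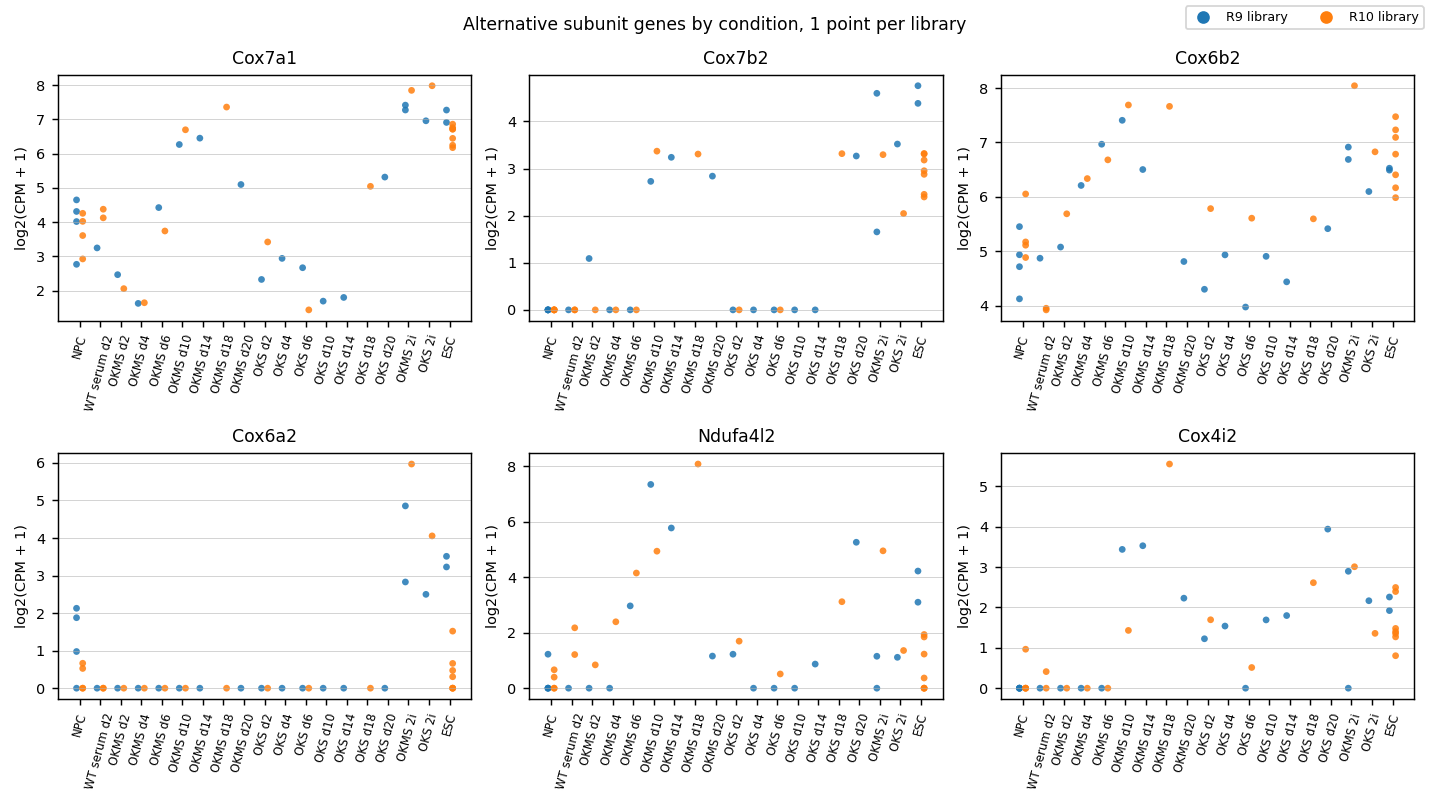
Levels of 6 alternative subunit genes as log2(CPM + 1) on the vertical axis, by condition on the horizontal axis, 1 point per library, coloured by R9 or R10. Cox7b2 is at 0 in all progenitors, and Cox6a2 is raised in reprogramming cells in 2i-LIF but at 0 in their serum partners.

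Other complex IV subunits without a tissue form also differed. Cox5a, a structural subunit next to the catalytic core, was at 788, 733, 814 and 813 CPM in R10 progenitors and 1307 to 1731 CPM (median 1494) in stem cells. Those groups did not overlap (0.94, adjusted p = 6.93e-07), nor did they in R9, where progenitors had 1019, 1295, 1382 and 1074 CPM and stem cells 3218 and 2984 CPM (1.39, adjusted p = 0.000583).

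In complex V, the 3 genes of subunit c were Atp5g1, Atp5g2 and Atp5g3, which encode the same mature subunit of the membrane ring with different import sequences. Atp5g1 was at 225, 240, 250 and 270 CPM in R10 progenitors and 418 to 1029 CPM (median 523) in stem cells, with no overlap, where the next highest after 1029 CPM (R1 replicate 3) was 555 CPM. The difference was 1.18 (adjusted p = 3.50e-05) and 1.03 without that library, and in R9 it was 1.57 (adjusted p = 0.000212) from 193 to 246 CPM in progenitors and 610 and 638 CPM in stem cells. Atp5g2 was at 7.59 to 18.7 CPM in R10 progenitors and 17.9 to 24.9 CPM in stem cells, with overlap; it rose by 0.82 in R10 (adjusted p = 0.00330) and differed by 0.91 in R9 (adjusted p = 0.140). Atp5g3 differed by -0.11 in R10 (adjusted p = 0.333) and -0.22 in R9 (adjusted p = 0.142). The 3 genes were not tested against each other. Atp5b, the catalytic beta subunit, rose by 0.27 in R10 (adjusted p = 0.0177) and 0.45 in R9 (adjusted p = 0.00824). Atp5d, the delta subunit of the central stalk, fell by 1.05 in R10 (adjusted p = 2.46e-05) and 0.73 in R9 (adjusted p = 0.00187).

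Mitochondrial members were tested apart in each library type. In R10, 3 of 7 tested were called, beside 69.2% of all genes: mt-Co1 (2.90, adjusted p = 0.0137) and mt-Nd1 (1.76, adjusted p = 0.0183) higher and mt-Nd4 (-3.20, adjusted p = 2.07e-05) lower in stem cells. The R9 libraries gave 4 calls among 7, all lower in the stem cells, beside 43.5% of all genes (21.9% lower): mt-Cytb (-1.70, adjusted p = 0.0118), mt-Nd5 (-1.62, adjusted p = 0.00318), mt-Nd4 (-1.21, adjusted p = 0.0419) and mt-Co1 (-0.62, adjusted p = 0.0249). Mt-Co1, the catalytic subunit of complex IV, had opposite signs in these fits, but its R9 difference was 0.32 with mitochondrial reads scaled apart. The R9 calls fell to 0 without either stem cell library, which leaves 1 in that group, and to 2 without the OKMS progenitor. By limma's interaction term with library type 0 of 7 were called (mt-Co1 adjusted p = 0.150), with 6 at an unadjusted p under 0.05, and edgeR was not run for it.

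The R10 libraries did not form 1 series for these genes. For mt-Co1 the R10 progenitors were at 92.7 and 94.6 CPM (OKMS and OKS) and 7.30 and 4.02 CPM (WT), and the stem cells at 244 to 321 CPM in the 6 named libraries and 9.71 CPM in R1 replicate 3. For mt-Nd4, a proton-pumping subunit of complex I, the progenitors had 3445 and 3745 CPM (OKMS and OKS) and 782 and 457 CPM (WT), against 119 to 194 CPM in the named stem cell libraries and 309.6 CPM in R1 replicate 3. Only mt-Nd4 kept progenitors and stem cells apart in every R10 library. With R1 replicate 3 as the only stem cell library mt-Co1 and mt-Nd1 turned to -1.21 and -1.49; without it 6 were called, 5 higher. Mitochondrial ribosomal RNA moved with the same split, at 1.15 to 1.81% of CPM in the named R10 series. In the other R10 libraries it was at 0.0548 to 0.105% in WT, R1 replicate 3 among them, and at 0.260 to 0.551% in OKMS or OKS. The R9 libraries had 0.0250 to 0.0977%, and its part in the result was not tested.

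Other genes of mitochondrial respiration were read from lists, beside 34.7% of all genes higher and 34.6% lower in R10, and 21.5% and 21.9% in R9. In R10, 11 of 46 assembly factors rose and 14 fell (median 0.00067), with Cox17, a copper chaperone, at 0.90 (adjusted p = 2.87e-05) and Cox20, a chaperone for the mitochondrial subunit 2 of complex IV, at -1.45 (adjusted p = 2.42e-07); in R9, 6 rose and 4 fell. Of 15 regulators of mitochondrial gene expression 6 rose and 3 fell in R10, and 5 rose and 2 fell in R9. Ppargc1a, a coactivator of mitochondrial biogenesis, was the lowest of them in both (-3.17, adjusted p = 1.72e-09 in R10, and -2.55, adjusted p = 0.00388 in R9). The highest of them were Tfb1m in R10 (1.60, adjusted p = 3.27e-07) and Ppargc1b in R9 (2.23, adjusted p = 0.0169). Among 78 mitochondrial ribosomal proteins, 28 rose and 15 fell in R10 and 23 rose and 5 fell in R9. For the 13 tricarboxylic acid cycle genes, 1 rose and 6 fell in R10, with citrate synthase (Cs) at -1.66 (adjusted p = 1.21e-07), and 0 rose and 3 fell in R9. The lowest of them in R9 was Dlst (-0.86, adjusted p = 0.0192), so the R9 difference of Cs was not below that. Between library types in matched conditions, Cs was 1.15 higher in R10 (adjusted p = 4.33e-10). The 10 carriers and other inner-membrane genes had 5 higher and 3 lower in R10 and 4 higher and 3 lower in R9. The highest of these in both was Chchd10 (7.74, adjusted p = 1.49e-11 in R10, and 9.54, adjusted p = 2.25e-05 in R9). Higd1a, a hypoxia-inducible inner-membrane protein, was the lowest and fell by 1.48 and 1.37.

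WT progenitors were compared with WT cells after 2 days in serum with doxycycline. In R10 (2 against 2 libraries), 5 of 84 nuclear members were called, beside 28.7% of all genes (15.6% higher, 13.1% lower), and the median was -0.18 against 0.12 for all genes. Cox6c, a structural subunit of complex IV, went from 2106 and 2253 CPM to 4475 and 5454 CPM (1.18, adjusted p = 0.0438). Ndufa1 (1.10, adjusted p = 0.0192) and Ndufa11 (1.08, adjusted p = 0.0318), accessory subunits of complex I, also rose. Cox6b2 fell from 65.4 and 33.6 to 14.5 and 14.2 CPM (-1.64, adjusted p = 0.0275) and Cox7c, another complex IV subunit, fell by 0.92 (adjusted p = 0.0358). By edgeR 1 member was called, and leaving out any 1 of the 4 libraries, which leaves 1 library in a group, gave 0 calls. Mitochondrial members had 0 of 7 calls with limma, and 0 at an unadjusted p under 0.05.

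With the medium held the same, day 2 cells with factors gave no nuclear call against WT. In R10 (OKMS and OKS, 1 library each, against 2 WT libraries), 0 of 85 were called by limma, with 6 at an unadjusted p under 0.05 and 0 called by edgeR, where 0.74% of all genes were called (0.714% higher). Among mitochondrial members 4 of 7 were called higher with factors, led by mt-Nd5 (4.42, adjusted p = 0.00435), mt-Cytb (4.18, adjusted p = 0.00511) and mt-Co1 (3.69, adjusted p = 0.00714). At mt-Cytb the WT libraries had 143 and 63.9 CPM and the factor libraries 1716 and 1794 CPM. The same OKMS and OKS against WT split was present among R10 progenitors at day 0. Induced factors and any other difference between the WT and factor-line libraries thus cannot be told apart. No label places these libraries in different sets. Mitochondrial ribosomal RNA was split likewise in all R10 libraries without a library name, at 0.0548 to 0.105% of CPM in WT and 0.260 to 0.551% in OKMS or OKS. Its part was not tested.

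Over the R9 time course no member was called. The moderated F test on days 0 to 20 called 0 of 88 nuclear members (12 at an unadjusted p under 0.05; edgeR 12, with 7 higher and 5 lower) and 0 of 8 mitochondrial members (1 at an unadjusted p under 0.05; edgeR 0), beside 10.8% of all genes. With 1 library per factor line and day, the reach of this test was limited. On simulated data it recovered 19% of genes changed 2-fold and 75% of those changed 4-fold. The simulation used a single fixed spread, left low genes unchanged and held each change on every day after day 0. Its shares do not describe members at low levels or with passing changes. Values over time are therefore given as a description. Ndufv3 stood at 246 to 508 CPM in all 12 R9 serum libraries of the factor lines from day 2 on, below the 729 CPM of the lowest R9 progenitor. In the WT cells after 2 days in serum it was at 433 CPM in R9, and at 513 and 739 CPM in R10.

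The alternative subunits were seen at different times in the OKMS and OKS lines, with 1 library per line and day. On days 2, 4, 6, 10, 14 and 20 in R9, Cox7a1 was at 4.52, 2.09, 20.5, 76.0, 86.5 and 33.2 CPM in OKMS and at 4.01, 6.68, 5.36, 2.23, 2.48 and 38.8 CPM in OKS. It thus first exceeded the highest R9 progenitor (24.1 CPM) on day 10 in OKMS and on day 20 in OKS. Cox7b2 was first seen on several reads on day 10 in OKMS (5.63 CPM) and on day 20 in OKS (8.62 CPM). Ndufa4l2, a complex IV subunit known as a hypoxia target, peaked at 162 CPM on day 10 in OKMS and was at 0 to 1.34 CPM in OKS until it reached 37.4 CPM on day 20. In the R10 day 18 serum libraries it stood at 270.1 CPM in OKMS and 7.68 CPM in OKS. Marker sums of the same R9 serum days are given as ranges. Striated muscle markers were at 2.26 to 6.26 CPM in OKMS on days 2 to 6 and 10.6 to 33.8 CPM on days 10 to 20, and in OKS at 3.81 to 5.36 and 4.46 to 49.6 CPM, with Ttn at 0 throughout. Germ cell markers went from 0 to 4.52 CPM to 39.4 to 67.7 CPM in OKMS, and from 2.67 to 13.4 CPM to 4.96 to 36.6 CPM in OKS, with Ddx4, Dazl, Tex101 and Ldhc at 0 on days 2 to 6 in both. Mesenchymal markers were at 299 to 615 and 80.0 to 482 CPM in OKMS and at 782 to 1383 and 379 to 2474 CPM in OKS, and neuron markers at 20.9 to 46.3 and 15.5 to 126 CPM in OKMS and 12.0 to 18.7 and 5.79 to 57.5 CPM in OKS. Pluripotency markers stood at 4909 to 9440 CPM in OKMS on days 10 to 20 and at 84.8 to 8137 CPM in OKS. The part of these markers in the levels, and in the comparison of the lines that follows, was not tested.

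Across the 6 days, the OKMS line had 14 of 83 nuclear members higher than the OKS line and 0 lower, with 28% of all genes called (12.3% higher, 15.7% lower); at an unadjusted p under 0.05 there were 22. The median was 0.17 against -0.11 for all genes. The called members were Cox6b2, Cox7c, Cox5b, Cox7a2 and Cox7b of complex IV, Atp5a1, Atp5b, Atp5g1 and Atp5md of complex V, Cyc1, Uqcrc1 and Uqcrc2 of complex III, and Ndufs1 and Ndufs6 of complex I. Of these, Cox5b has near-identical copies, so its level is uncertain. Cox6b2 was at 32.8, 73.0, 124, 169, 89.7 and 27.1 CPM in OKMS and at 18.7, 29.6, 14.7, 29.0, 20.7 and 41.7 CPM in OKS, higher on 5 of 6 days (1.501, SE 0.38, adjusted p = 0.0109). Cox7c was higher in OKMS on 6 of 6 days (0.82, adjusted p = 0.0105) and Cox7b likewise (0.58, adjusted p = 0.0267). Calls fell to 2 without day 6 and to 4 without day 4, and the few R10 pairs called 0, with 4 at an unadjusted p under 0.05.

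Of 7 mitochondrial members tested, mt-Nd4, mt-Nd5 and mt-Nd6 were called in this comparison, all lower in OKMS, beside 28% of all genes (15.7% lower). The other 4 were not called, and mt-Co1 was at 0.09 (adjusted p = 0.806). Mt-Nd4 was at 448 to 1037 CPM in OKMS and 515 to 2621 CPM in OKS and was lower in OKMS on 6 of 6 days (-1.27, SE 0.26, adjusted p = 0.00401). For mt-Nd6, which is encoded on the opposite strand from the other members, ranges were 247 to 472 and 331 to 1092 CPM (-0.97, adjusted p = 0.00206), and mt-Nd5 differed by -0.55 (adjusted p = 0.0495). Of the mitochondrial ribosomal protein list 34 of 78 were higher in OKMS and 1 lower, beside 12.3% and 15.7% of all genes.

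Late reprogramming cells in 2i-LIF were set against cells of the same line, day and library type left in serum, in 5 pairs. Serum again means FBS-LIF with doxycycline, and doxycycline was not tested apart from the medium. Here 19 of 88 nuclear members were called, 16 higher and 3 lower in 2i-LIF, beside 15.4% of all genes (7.86% higher, 7.53% lower), and the median was 0.19 against -0.03. By complex, 6 were in complex I, 3 in III, 6 in IV and 4 in V. Among the mitochondrial members 0 of 7 were called by limma, with 1 at an unadjusted p under 0.05.

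Cox6a2, the heart and skeletal muscle form of subunit 6a, differed most. It was at 0 in all 5 serum libraries and at 6.11, 27.9, 4.66, 61.7 and 15.6 CPM in their 2i-LIF partners (OKMS day 14, OKMS day 20 and OKS day 20 in R9, then OKMS and OKS day 18 in R10). Over the group this is 80 reads against 0, at least 32.2-fold higher (adjusted p = 7.65e-05). Cox6a2 passed the filter only through the 2i-LIF libraries, so a call on it could only be higher. Cox7a1 rose in 5 of 5 pairs, from 86.5, 33.2, 38.8, 163 and 32.01 CPM to 170, 154, 123, 229 and 252 CPM (1.64, SE 0.27, adjusted p = 0.000436). Cox5a rose in 5 of 5 pairs, from 1036 to 1431 CPM in serum to 2052 to 3658 CPM in 2i-LIF, without overlap (1.06, adjusted p = 8.41e-05). Atp5g1 also rose in 5 of 5 pairs, from 163 to 662 CPM to 427 to 772 CPM, where the ranges overlapped (1.07, adjusted p = 0.000684). Ndufs5, an accessory subunit of complex I, was at 0 to 2.56 CPM in serum and rose by 1.49 (adjusted p = 0.0423). It is one of the members with near-identical copies, so its level is uncertain.

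Ndufa4l2 and Cox4i2, both tied to low oxygen, were lower in 2i-LIF. Ndufa4l2 went from 53.8, 1.23, 37.4, 270.1 and 7.68 CPM to 1.22, 0, 1.16, 30.0 and 1.56 CPM, a fall in 5 of 5 pairs (-2.96, SE 0.50, adjusted p = 0.000596). Cox4i2 was lower in 4 pairs and higher in 1 (-1.69, adjusted p = 0.0431). The third call in this direction, Atp5e, the epsilon subunit of complex V, fell in 5 of 5 pairs (-0.54, adjusted p = 0.0167). Marker sums of these libraries are given as ranges per medium, not pair by pair. Mesenchymal markers were at 75.7 to 432 CPM in serum and 12.3 to 25.0 CPM in 2i-LIF, and striated muscle markers at 10.6 to 49.6 and 6.26 to 14.0 CPM. Germ cell markers were at 34.6 to 128 and 119.7 to 406 CPM, and pluripotency markers at 5676 to 15642 and 9800.0 to 15721 CPM. Neuron markers were at 17.8 to 126 and 40.6 to 108 CPM, and neural progenitor markers at 16.0 to 92.2 and 1.76 to 68.8 CPM. Only the mesenchymal ranges did not overlap. The part of these markers in the differences was not tested. Calls fell to 8 without OKS day 20 and to 10 without OKS day 18.

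Reprogrammed cells in 2i-LIF were then compared with stem cells in the same medium. In R9 (3 against 2 libraries) 1 of 87 nuclear members was called, Cox6a1, the widely expressed form of subunit 6a, at -0.72 (adjusted p = 0.0329), beside 0.814% of all genes (0.465% higher, 0.349% lower). No nuclear call was left without any 1 library, with a pseudocount of 0.25 or with no filter. The mitochondrial mt-Cytb was called higher (0.77, adjusted p = 0.0353). In R10 (2 against the 6 named stem cell libraries) 20 of 88 were called, 16 higher and 4 lower in reprogrammed cells, beside 19% of all genes (7.52% higher, 11.4% lower), and the median was 0.16 against -0.10; centred libraries gave 22 higher and 1 lower. Cox6a2 led with 45 reads in 2 libraries against 4 reads in 6 (4.77, adjusted p = 8.22e-05), followed by Cox7a1 (1.38, adjusted p = 0.000853) and Atp5h, a peripheral stalk subunit of complex V (1.22, adjusted p = 0.000167). Cox6a2 passed the filter only through the reprogrammed libraries, so a call on it could only be higher. Atp5h is one of the members with near-identical copies, so its level is uncertain. Cox6b1, the widely expressed form of subunit 6b, was lower (-0.55, adjusted p = 0.00697), as were mt-Co1 (-0.52, adjusted p = 0.0162) and mt-Nd4 (-0.52, adjusted p = 0.0479). Calls dropped to 13 without O4G replicate 1 and without the OKMS library. In R9 the differences were 0.02 for Cox6a2 (adjusted p = 0.993; stem cells at 8.38 and 10.4 CPM), 0.12 for Cox7a1 (0.835), -0.01 for Atp5h (0.996) and -0.10 for Cox6b1 (0.832). Whether the R10 and R9 differences differ was not tested.

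The library type itself moved many members in matched conditions. Between R10 and R9, 41 of 85 nuclear members were called, 18 higher and 23 lower in R10, beside 39.5% of all genes (20.7% higher, 18.8% lower); centred libraries gave 18 and 15, and edgeR 21 and 12. The gene copies Ndufa11b (1.49, adjusted p = 0.000390) and Ndufs6b (0.97, adjusted p = 0.0170) rose most among nuclear members, both at a few CPM. Mitochondrial members were called in 6 of 7, with mt-Co1 (-3.53), mt-Nd2 (-2.71) and mt-Nd6 (-2.10) lower and mt-Nd4 (1.44) higher in R10.

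Long reads also gave the share of each gene's transcripts, as the percent of the gene's summed TPM. In R10, a transcript changed by at least 20 points with an adjusted p under 0.05 in 16 of 63 member genes (25.4%), beside 27.7% of all genes. In R9 the rule called 0 of 71 with limma, beside 2.24% of all genes; 6 genes passed 20 points at an unadjusted p under 0.05, and no other tool was run. Of the 16 genes, 3 (Atp5c1, Atp5g1 and Atp5j, all of complex V) moved by 20 points the same way in R9 and also in R1 replicate 3. In 5 genes (Atp5a1, Cox7c, Ndufa12, Ndufa9 and Ndufs6) a called transcript was shorter than 300 bases and near its progenitor level in R1 replicate 3, for example Ndufa9 at 3.75% in progenitors, 40.0% in stem cells and 5.30% in that library. Some OKMS serum libraries of R10 without a library name were near the stem cells, with the Ndufa9 transcript at 32.9% on day 2 and 35.9% on day 10.

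Atp5c1 encodes the gamma subunit, the rotating central stalk of ATP synthase, and lies on mm10 chromosome 2 at 10056016 to 10080510, minus strand. Its transcripts differ by a 37-base exon 9 (chr2:10056770-10056806), which changes the end of the coding sequence. The last coding bases are shown from the GENCODE M21 transcripts, where lower case marks the last 30 bases of the shared exon 8 and capitals mark what follows, up to and including the stop codon:
Atp5c1, 10 exons: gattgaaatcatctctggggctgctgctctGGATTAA
Atp5c1, 9 exons: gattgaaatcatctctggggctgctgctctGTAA

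The 9-exon transcript lost most of its share in stem cells. It took 25.9, 23.6, 18.1 and 24.4% in the R10 progenitors, 25.3, 23.9, 19.0 and 21.8% in the R9 progenitors, 0.929 to 4.88% in the R10 stem cells (median 1.99%) and 1.42 and 1.91% in the R9 stem cells. No stem cell library reached the progenitor range. The R10 difference was 23.0% to 2.46% (adjusted p = 1.62e-05; 1.71% in R1 replicate 3), and in R9 it was 22.5% to 1.66% (adjusted p = 0.139). Without the OKMS progenitor the R10 difference was -19.6 points, just under the 20-point rule. The level of the gene itself differed by -0.01 in R10 (adjusted p = 0.907).

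In R9 serum the 9-exon share was lower in OKMS than in OKS on 6 of 6 days. On days 2, 4, 6, 10, 14 and 20 in R9 it was 16.0, 5.02, 3.74, 10.9, 4.43 and 0.597% in OKMS and 32.5, 26.2, 37.7, 33.2, 18.6 and 3.26% in OKS. In R10 it was 14.0, 2.20, 2.13 and 10.2% for OKMS on days 2, 4, 6 and 10 and 40.9 and 30.4% for OKS on days 2 and 6, but 12.9% for OKMS and 0.778% for OKS on day 18. WT cells after 2 days in serum had 25.8 and 40.0% in R10 and 38.7% in R9. A share test of OKMS against OKS, added after these values were seen, gave -18.5 points (SE 4.58, unadjusted p = 0.00338, adjusted p = 0.485 over all transcripts), and did not pass; with limma 0 of 64 member genes were called, beside 0.158% of all genes. In 2i-LIF the share was 0.981, 2.01, 1.73, 4.50 and 1.36%.

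**Figure D4:**
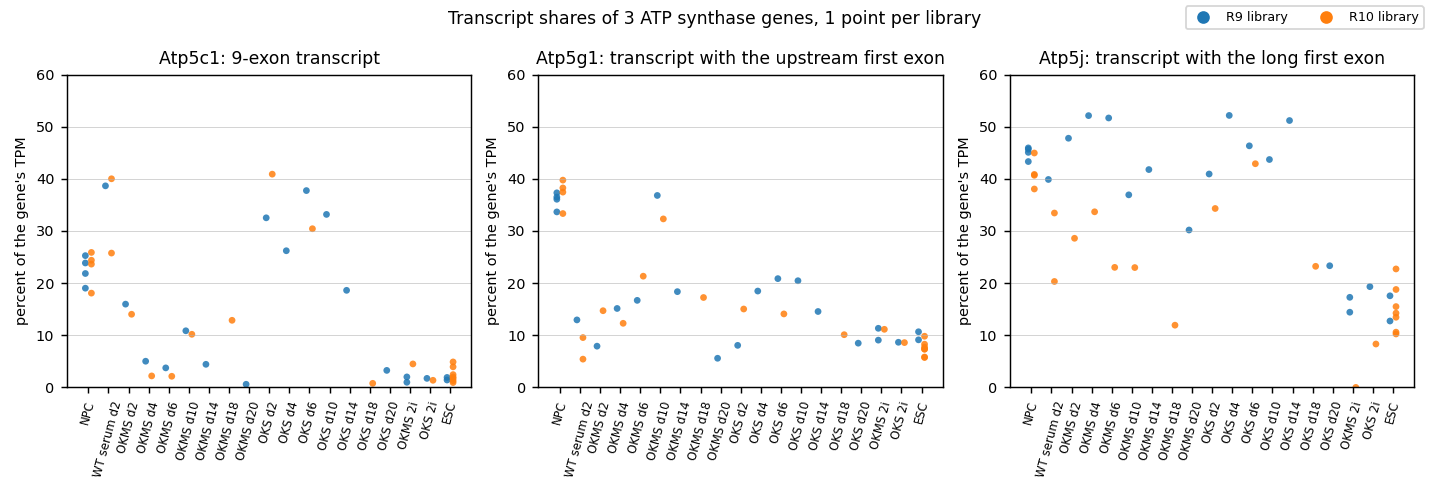
Share of 1 transcript in the gene's summed TPM, in percent on the vertical axis, for Atp5c1, Atp5g1 and Atp5j, by condition on the horizontal axis, 1 point per library, coloured by R9 or R10. For the Atp5c1 9-exon transcript all 8 progenitor libraries sit at 18.1% or above and all 9 stem cell libraries at 4.88% or below.

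Atp5g1, higher in stem cells, also differed in its first exon. A transcript with an upstream first exon (chr11:96075627-96075959, minus strand) took 38.3, 33.3, 39.7 and 37.5% in the R10 progenitors and 33.7, 36.5, 37.3 and 36.1% in R9. It fell to 5.73 to 9.81% in the R10 stem cells, which did not overlap the progenitors (37.2% to 7.44%, adjusted p = 2.31e-06), and from 35.9% to 9.89% in R9 (adjusted p = 0.121). The transcript with the other first exon (chr11:96075557-96075649) rose from 57.5% to 87.0% (adjusted p = 1.67e-06), and both predicted coding sequences have 136 residues. The upstream share was already 5.42 and 9.55% in the R10 and 12.9% in the R9 WT cells after 2 days in serum, at -31.1 points from R10 WT progenitors, while the level was 157 and 229 CPM against 250 and 270 CPM (-0.45, adjusted p = 0.230). That test was added after values were seen and its adjusted p was 0.150, with limma calling 0 of 57 member genes, 3 at an unadjusted p under 0.05, beside 1.14% of all genes. In R9 serum the share was 7.91, 15.1, 16.7, 36.8, 18.4 and 5.59% in OKMS over the 6 days and 8.06, 18.5, 20.9, 20.5, 14.6 and 8.48% in OKS.

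Atp5j, coupling factor 6 of the peripheral stalk, also used a long first exon (chr16:84835421-84835883, minus strand) less in stem cells. That transcript took 38.0, 40.8, 44.9 and 40.7% in the R10 progenitors and 10.2 to 22.7% (median 14.2%) in the stem cells, without overlap (41.1% to 15.1%, adjusted p = 0.000124). In R9 it took 43.3 to 45.9% in progenitors and 12.7 and 17.6% in stem cells (adjusted p = 0.108). On days 2 to 6 it was at 40.9 to 52.2% in both factor lines in R9. In R10 it was lower, at 28.6, 33.7 and 23.0% in OKMS on days 2, 4 and 6 and at 34.3 and 42.9% in OKS on days 2 and 6. The level of the gene itself differed by -0.10 in R10 (adjusted p = 0.421).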

How the data were processed

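RNA was sequenced as long cDNA reads in 45 mouse libraries (22 R9, 23 R10). Per the submitters' processing notes reads were aligned with minimap2 2.24-r1122 and mm10 was the genome. The authors deposited gene values as CPM and transcript values as TPM, and the exon and length annotation used for transcripts is the authors' own. How reads of near-identical genes were shared out, and whether TPM is scaled by length, is not given in the sources used here, so no level was compared between genes. Every CPM value above 0 was a whole number of reads (100% within a tolerance of 0.02), which gave depth. A further 13 columns of the gene table match no sample and were not used.

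Tests were fitted over every gene that reached 1 CPM in a number of libraries no smaller than the smaller group, on log2(CPM + 1) with limma 3.58.1 in R 4.3.3, calling at an adjusted p under 0.05. Benjamini-Hochberg adjustment ran over all genes tested. edgeR 4.0.16 on the recovered reads, a pseudocount of 0.25, no filter and a filter of 5 CPM, median centring, mitochondrial reads scaled apart, a replicate block and leaving out each library were the alternatives. Transcript shares used genes with at least 5 TPM in every library and at least 2 transcripts of 5% or more, and a call needed 20 percentage points. Scripts were tested on simulated data.

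Named were fixed sets of alternative subunits, 1 reference subunit per complex, the 3 largest called members each way per comparison, and fixed mitochondrial genes; Ndufa8, Ndufc2, Sdhb, Uqcrh, Atp5d and the transcripts of Atp5g1 and Atp5j were chosen after their values were seen. The members and lists were chosen with earlier results of these data known. The interaction test and 2 further share tests (OKMS against OKS, WT in serum against WT progenitors) were added after values were seen.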

Additional observations from a re-analysis of the deposited data

Results flagged for a closer look

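Quantities were examined for a library far from the rest in the R10 progenitors, the R9 progenitors and the R10 stem cells. Of these 72 groups of 4 or 7 libraries, 11 had one, where chance would flag about 1 in 20 independent groups. Among the 11, 10 share a library, so these groups are not independent. In these 10 it was stem cell library R1 replicate 3 in R10. It was the highest at Atp5g1 (1029 CPM, next 555), Cox7a2l (56.4, next 39.9) and mt-Nd4 (309.6, next 194). It was the lowest at Ndufs1 (69.1 CPM, next 104), mt-Co1 (9.71, next 244), mt-Cytb (56.0, next 705), mt-Nd1 (272, next 3456) and mt-Nd5 (11.2, next 349). Its nuclear members took 5.22% of CPM (next 4.40%) and its mitochondrial members 0.0693% (next 0.534%). The other was Ndufa4l2 in the R9 progenitors, at 1.34 CPM in 1 WT library and 0 in the other 3.

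The difference between stem cells and progenitors was not the same size in R10 and R9 for Cox7b2 (R10 minus R9 -1.64, adjusted p = 0.0320) and Sdhb (-0.63, adjusted p = 0.0483), by limma's interaction term. Cox7b2 was at 0 in all progenitors, so for it this compares only stem cell levels between the library types.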

How the results depend on the processing

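Over all comparisons, 1104 of 1280 values for single members kept direction and side of the threshold, 159 lost their call, 13 gained one and 4 reversed; 136 of 183 counts stayed within 1.5 times. The reversals were mt-Co1 (-1.21), mt-Nd1 (-1.49) and Ndufs1 (-0.20) with R1 replicate 3 as the only R10 stem cell library, and mt-Co1 in R9 (0.32) with mitochondrial reads scaled apart. With that single library R10 calls between stem cells and progenitors were 14 nuclear and 0 mitochondrial; mitochondrial calls were 5 with median centring and 6 scaled apart, and 2 in R9 scaled apart. For WT serum, calls were 2 with centring, 1 with edgeR and 22 with a replicate block (6 higher, 16 lower); same-numbered deviations correlated at 0.4737, and 2 pairs do not show that the numbers pair samples. The time course gave 4 with centring and 12 with edgeR. OKMS against OKS gave 9 with no filter and 0 in R10, and 2i-LIF against serum 12 with no filter. Reprogrammed cells against stem cells gave 0 (pseudocount 0.25), 0 (no filter) and 2 (edgeR) in R9, and 13 (edgeR) in R10. Transcript shares called 0 genes in R9. Leaving out 1 library, nuclear calls ranged over 45 to 58 and mitochondrial calls over 1 to 6 in R10 (1 without WT progenitor replicate 3, 6 without R1 replicate 3, 5 without the OKMS or OKS progenitor), and over 14 to 32 and 0 to 5 in R9 (17 nuclear without O4G and 14 without R1 stem cells; 0 mitochondrial without either, 2 without the OKMS progenitor). Other ranges were 0 to 0 (WT serum; day 2 factors; R9 reprogrammed against stem cells; mitochondrial time course), 0 to 1 (time course), 2 to 13 (OKMS against OKS; 8 without day 14, 9 without day 10), 8 to 18 (2i-LIF against serum; 12 without OKMS day 14), 13 to 24 (R10 reprogrammed against stem cells), 37 to 41 and 6 to 6 (library type, nuclear and mitochondrial) and 13 to 19 (transcript shares). In these cases the cause was not tested. Depth limits the members at a few reads per library (Cox4i2, Cox6a2, Cox7b2).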
